A study of Mus musculus with 5 samples.

Results

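The mRNAs described here encode the translation initiation factors that act around the cap-binding complex rather than within its cap-binding part: eIF1, eIF1A, eIF2 and its exchange factor eIF2B, the kinases of eIF2, eIF3, the eIF4A helicases with eIF4B and eIF4H, and eIF5, eIF5B, eIF5A and eIF6. The members were chosen by gene symbol, as all symbols that begin with Eif1, Eif2, Eif3, Eif5, Eif6, Eif4a, Eif4b or Eif4h, without the genes of the gamma subunit of eIF2 and without symbols marked as pseudogenes. The rule gave 62 of the 49875 gene IDs in the table. The RNA came from the cytoplasm of wild-type mouse neocortex at E13.5, a stage of embryonic neurogenesis, and all groups share this genotype, age and tissue. There were 2 libraries from precipitates with an antibody against eIF4E, 1 library from a control precipitate with rabbit IgG, and 2 libraries from the cytoplasmic Input. The labels call the paired libraries biological replicates and do not give the animals or pools behind them, so the p-values reflect how far these particular libraries scatter, which may be technical.

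A ribosome starts on an mRNA in steps. eIF2 brings the initiator tRNA to the small ribosomal subunit, together with eIF1, eIF1A, eIF5 and the large assembly eIF3. eIF4E on the cap recruits the scaffold eIF4G and the helicase eIF4A, and the small subunit then scans to the start codon, where eIF5 triggers GTP hydrolysis by eIF2 and eIF5B joins the large subunit. eIF2B recharges eIF2 with GTP, and kinases that phosphorylate eIF2 block this recharging under stress. What was measured is the mRNA of each factor, not the protein, and its relative abundance with eIF4E is not a rate of translation.

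Values are RSEM abundances per transcript length, either FPKM or TPM, so levels of different genes can be set side by side within a library. No counts were used and the depth behind a value is unknown. Fold changes are on the scale of log2(abundance + 1), which understates the change of low genes. Across the genes tested, the libraries of the eIF4E pair correlated with Pearson's r = 0.989 and those of the Input pair with r = 0.993, whereas the IgG library reached at most 0.707 with any other (across genes, which are not independent replicates). The progenitor markers Pax6, Sox2, Emx1 and Eomes and the neuron markers Tubb3, Tbr1, Neurod6 and Dcx were above 0 in all groups. Sox2 stood at only 0.34 in IgG, under the filter value of 1 used below. A value above 0 does not settle the tissue, as the endothelial markers Pecam1 and Kdr were also above 0 in IgG, at 0.06. Other cells contributed as well. The 4 erythroid markers summed to between 3017 and 3984 in eIF4E, 1391 in IgG (Hba-a2 at 0) and between 11119 and 12208 in Input. The endothelial and mural list summed to 35.9 to 38.3, 17.6 (Cldn5 at 0) and 66.6 to 69.1 in that order of groups, the microglial list to 10.6 to 11.7, 22.0 (Csf1r and C1qc at 0) and 31.4 to 34.5, and the meningeal list to 84.4 to 88.0, 264.5 (Dcn and Lum at 0) and 99.6 to 117. The 5 mitochondrially encoded RNAs checked summed to at most 44.9 in eIF4E, 38628 in IgG and at least 3613 in Input. In IgG, Rgs5 (17.49), C1qb (21.85) and Col3a1 (241.79) made up most of the endothelial and mural, microglial and meningeal sums. Genes of a list also moved apart. In eIF4E over Input, Rgs5 was at log2 1.39 and Cldn5 at -1.31, and Dcn at 1.35 and Col3a1 at -0.82. In IgG over Input, mt-Rnr1 was at log2 -2.69 and mt-Rnr2 at 4.96. The sums move with the groups, and their part in the results below was not tested. In such bulk samples the share of each cell type in the value of a gene is not known.

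Of the 62 members, 42 passed the filter on low values (at least 1 in at least 2 libraries). A further 19 were listed at 0 in every library: 17 numbered Eif1ad genes, Eif4a3l1 and Eif2c5. Eif4a3l2, annotated as a pseudogene, stayed below 1 throughout. Among the 42, Eif2ak2, Eif3j1, Eif3j2 and Eif5a2 reached the filter in eIF4E libraries only, so their higher values there follow in part from the filter.

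Setting eIF4E against Input asks which of these mRNAs took a larger or smaller share of the precipitate than of the cytoplasm. The factors split. eIF2 subunits, eIF1A, eIF5, eIF5B, Eif3a, Eif3m and Eif4a2 rose, whereas most eIF2B subunits, 7 eIF3 subunits, Eif4a3, Eif5a and Eif6 fell. With limma, 19 of the 42 members were higher, where 43.3% of all genes tested were higher, and 15 were lower, where 30.6% of all genes were. Without the 4 members that reached the filter in eIF4E alone, 15 of 38 were higher and 15 lower. The median log2 fold change was 0.10 over the members and 0.16 over all genes tested. The shares thus lie near those of all genes. The split depends on the scaling between libraries, with 15 higher and 22 lower under median-of-ratios scaling and 26 higher and 13 lower after rescaling to the same total.

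**Figure D1:**
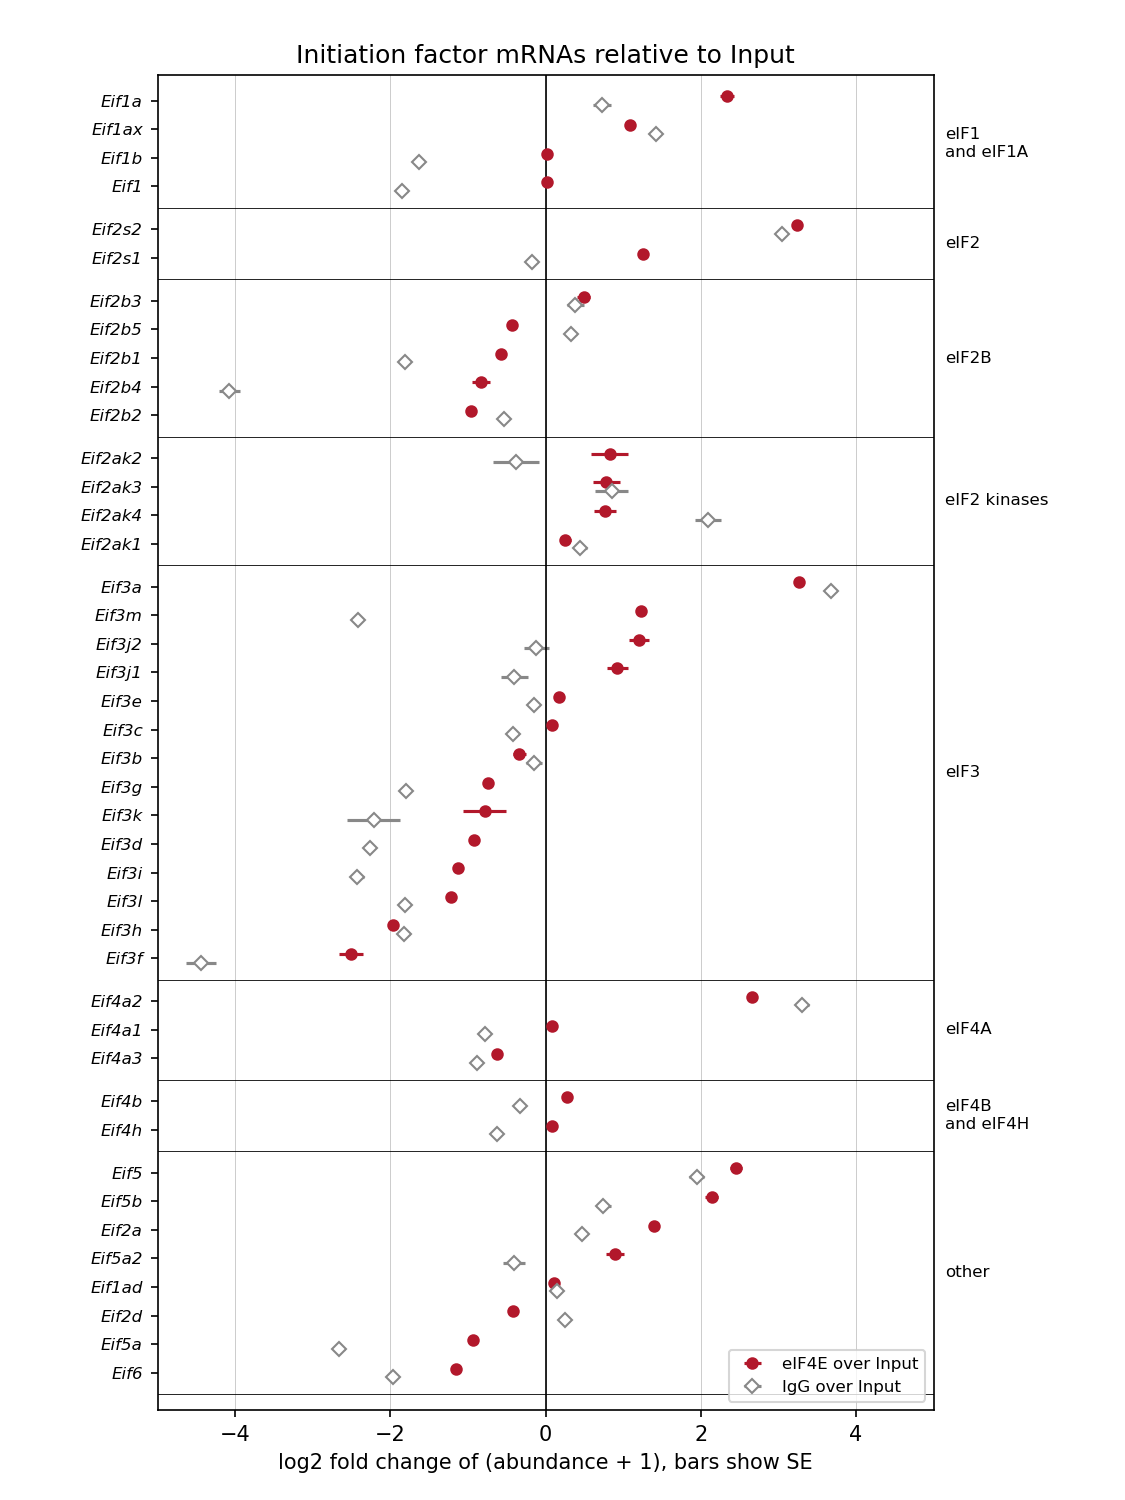
Each row is an initiation factor mRNA, and the horizontal axis is the log2 fold change of (abundance + 1). Filled circles give eIF4E over Input and open diamonds give IgG over Input, with bars for the standard error from limma. In the eIF4E comparison eIF3 runs from -2.51 (Eif3f) to 3.26 (Eif3a), and the IgG diamond lies on the same side of 0 at both ends.

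eIF2 carries the initiator tRNA. Eif2s1, its alpha subunit and the site of the inhibitory phosphorylation, stood at 52.0 and 49.95 in eIF4E, 18.3 in IgG, and 21.2 and 20.4 in Input. Eif2s2, the beta subunit, stood at 82.8 and 82.9 in eIF4E, 72.0 in IgG, and 7.96 and 7.75 in Input. In the values as deposited, Eif2s1 in IgG was close to Input and Eif2s2 in IgG close to eIF4E. For Eif2s1 the log2 fold change of IgG over Input depended on the scaling. It was -0.44 under median-of-ratios scaling, -0.53 under quantile normalization and 0.39 at the same total. Eif2s2 rose 9.47-fold over Input (log2 3.24, SE 0.06, adjusted p = 4.7e-05) and Eif2s1 2.39-fold (log2 1.25, SE 0.06, adjusted p = 1.3e-04). The order of the subunits was not the same in the groups: the ratio of Eif2s2 to Eif2s1 was 1.59 and 1.66 in eIF4E, 3.94 in IgG, and 0.376 and 0.381 in Input. Against IgG, Eif2s1 was higher in eIF4E (log2 1.43, adjusted p = 8.5e-05). Eif2s2 passed only narrowly (log2 0.20, adjusted p = 0.0448), lost the call under median-of-ratios scaling and without any single other library (adjusted p from 0.0788 to 0.0955), and turned under quantile normalization and the same total.

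eIF2B, the guanine nucleotide exchange factor of eIF2, went the other way: 4 of its 5 subunits were lower, where 30.6% of all genes were. Eif2b2, its beta subunit, was by far the most abundant and stood at 171 and 172 in eIF4E, 230.3 in IgG, and 329 and 339 in Input. Eif2b1, the alpha subunit, stood at 55.8 and 52.4 in eIF4E, 22.3 in IgG, and 79.9 and 82.0 in Input. Eif2b4, the delta subunit, stood at 21.1 and 17.8 in eIF4E, 1.16 in IgG, and 33.5 and 37.3 in Input. The regulatory subunits alpha, beta and delta were thus all lower with eIF4E than in Input, as was the epsilon subunit given next. Of the catalytic subunits, Eif2b5 (epsilon) stood at 25.7 and 26.4 in eIF4E, 44.8 in IgG, and 36.8 and 34.3 in Input, and Eif2b3 (gamma) at 31.7 and 36.1 in eIF4E, 31.4 in IgG, and 23.1 and 24.5 in Input. Eif2b2 fell to 0.515 of Input (log2 -0.96, SE 0.04, adjusted p = 1.1e-04) and Eif2b5 to 0.741 (adjusted p = 0.00335, but 0.0565 after rescaling to the same total). Eif2b3 was the exception at 1.41-fold (log2 0.49, SE 0.09, adjusted p = 0.00603), a call that was lost without Input replicate 1 (adjusted p = 0.0509) and under median-of-ratios scaling (adjusted p = 0.149). The highest of the 5 subunits exceeded the lowest 8.09-fold and 9.67-fold in eIF4E and 14.3-fold and 13.8-fold in Input. In IgG the range was 199-fold and rests on the low Eif2b4 value of 1.16.

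The kinases that phosphorylate eIF2 had low levels. Eif2ak1 (HRI, known for sensing heme) stood at 19.6 and 19.9 in eIF4E, 22.8 in IgG, and 17.0 and 15.9 in Input. Eif2ak4 (GCN2, which senses uncharged tRNA) stood at 10.4 and 8.28 in eIF4E, 24.7 in IgG, and 5.45 and 4.64 in Input. Eif2ak3 (PERK, of the endoplasmic reticulum) stood at 3.22 and 2.94 in eIF4E, 3.28 in IgG, and 1.06 and 1.73 in Input. Eif2ak2 (PKR, which binds double-stranded RNA) stood at 1.22 and 1.40 in eIF4E, 0 in IgG, and 0.05 and 0.62 in Input. The IgG library was above Input too for Eif2ak1, Eif2ak3 and Eif2ak4 (log2 0.45, 0.85 and 2.09), and below it for Eif2ak2 (log2 -0.38). Neither Eif2ak1 (log2 -0.20) nor Eif2ak3 (log2 -0.07) was higher in eIF4E than in IgG. All 4 were higher in eIF4E than in Input by the test, where 43.3% of all genes were, by at most log2 0.82 (Eif2ak2, which reached the filter in eIF4E alone). Under quantile normalization Eif2ak3 and Eif2ak2 lost their calls (adjusted p = 0.182 and 0.225). Eif2ak2 also lost its call under median-of-ratios scaling (adjusted p = 0.0549), with pseudocount 0.1 (0.0719) and without the filter (0.0933). Eif2ak1 turned under median-of-ratios scaling and quantile normalization, and its call was lost without any single eIF4E or Input library (adjusted p from 0.0572 to 0.115). The call of Eif2ak3 was lost without eIF4E replicate 1 or 2 (adjusted p = 0.0691 and 0.0538), and that of Eif2ak2 without either of these or without Input replicate 1 (adjusted p = 0.097, 0.128 and 0.0651). Eif2ak4 kept its call without each single library (log2 0.77 with all libraries, adjusted p = 0.00649) but lost it under quantile normalization (adjusted p = 0.175), and it was lower in eIF4E than in IgG (log2 -1.32, adjusted p = 0.00149).

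**Figure D2:**
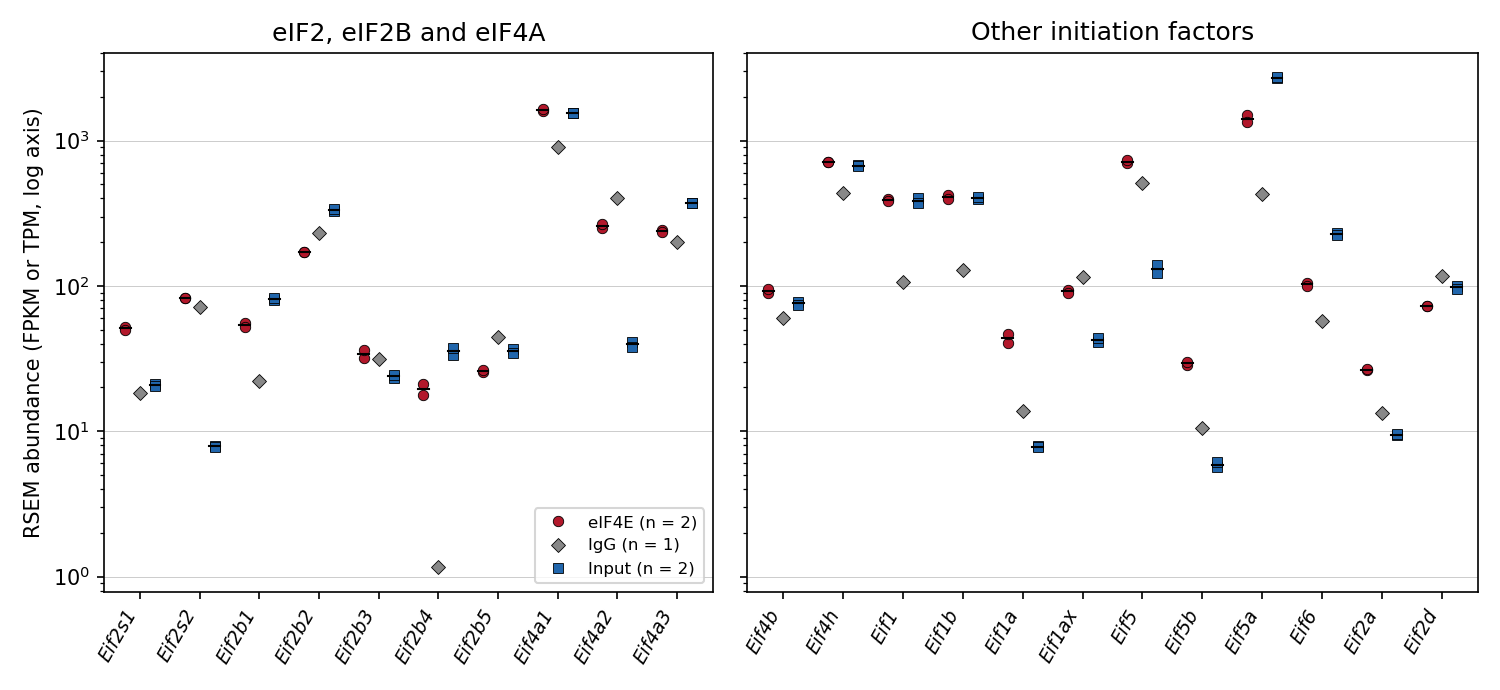
Abundance of each mRNA (vertical log axis, FPKM or TPM) in every library for eIF2, eIF2B and eIF4A on the left and for other initiation factors on the right. Red circles are eIF4E, grey diamonds IgG and blue squares Input libraries, and black lines are means of 2 libraries. Eif2s2 and Eif4a2 are far higher in eIF4E and in IgG than in Input, whereas Eif5a is highest in Input at 2690.1 and 2715.

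eIF3 is the largest initiation factor and bridges the small ribosomal subunit and eIF4G. Its core is built from 6 subunits with a PCI domain (a, c, e, k, l and m) and 2 with an MPN domain (f and h), with b, d, g and i attached around them and j bound loosely. Among the 14 genes tested, 4 rose with eIF4E over Input and 7 fell, with a median log2 fold change of -0.54, where 43.3% of all genes were higher and 30.6% lower. Of the 4 that rose, Eif3j1 and Eif3j2 reached the filter in eIF4E alone. Leaving these out, 2 of 12 rose and 7 fell, with a median of -0.76 against 0.16 over all genes tested.

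Both MPN subunits had the lowest fold changes. Eif3f stood at 23.3 and 17.1 in eIF4E, 4.52 in IgG, and 115 and 123 in Input. Eif3h stood at 62.9 and 57.0 in eIF4E, 66.1 in IgG, and 234 and 238 in Input. Eif3f fell to 0.175 of Input (log2 -2.51, SE 0.15, adjusted p = 2.2e-04) and Eif3h to 0.257 (log2 -1.96, SE 0.06, adjusted p = 7.1e-05). Of the surrounding subunits, Eif3i, a WD40 protein, was the most abundant in Input and stood at 369.8 and 418 in eIF4E, 159 in IgG, and 863 and 854 in Input. Eif3g, which binds RNA, stood at 479.6 and 500.3 in eIF4E, 235 in IgG, and 819 and 815 in Input. Eif3d, known for binding the cap of selected mRNAs itself, stood at 92.2 and 94.4 in eIF4E, 36.4 in IgG, and 178 in both Input libraries. All of these fell, by log2 -1.13 (Eif3i), -0.74 (Eif3g) and -0.93 (Eif3d). Eif3b, a scaffold, was 25.3 and 23.0 in eIF4E, 27.7 in IgG, and 32.2 and 29.5 in Input, a small fall (log2 -0.34, adjusted p = 0.0167) that lost its call without eIF4E replicate 2 (adjusted p = 0.0687), without Input replicate 1 (0.0961) and after rescaling to the same total (0.295).

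The PCI subunits were mixed. Eif3a, the scaffold that holds the complex together, stood at 107 and 113 in eIF4E, 147 in IgG, and 10.4 and 10.8 in Input. Eif3m stood at 382 and 399.8 in eIF4E, 30.4 in IgG, and 169.5 and 164 in Input. The eIF4E values exceeded the Input values in both, but IgG was the highest library for Eif3a and the lowest for Eif3m. Eif3a rose 9.58-fold (log2 3.26, SE 0.06, adjusted p = 4.7e-05) and Eif3m 2.33-fold (log2 1.22, SE 0.05, adjusted p = 9.1e-05). Eif3l fell, at 78.0 and 78.9 in eIF4E, 52.0 in IgG, and 188 and 181 in Input (log2 -1.22). Eif3c (75.5 and 69.6 in eIF4E, 51.0 in IgG, 67.0 and 69.7 in Input) did not pass (log2 0.08, adjusted p = 0.28). Eif3e had 92.7 and 101 in eIF4E, 76.9 in IgG, and 86.8 and 84.5 in Input (log2 0.17, adjusted p = 0.0546, but 0.0285 without eIF4E replicate 1), and both turned under median-of-ratios scaling. Eif3k had only 2.45 and 2.19 in eIF4E, 0.23 in IgG, and 3.39 and 6.45 in Input. Its Input values lie far apart for their level, and it missed the threshold (log2 -0.79, adjusted p = 0.0525). It was lower without Input replicate 1 (log2 -1.17, adjusted p = 0.0106), under median-of-ratios scaling (0.0206), under quantile normalization (0.0105) and with the replicate block (0.0485), but not without Input replicate 2 (log2 -0.40, adjusted p = 0.0904).

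The loosely bound subunit j is encoded by 2 genes, Eif3j1 and Eif3j2, whose reads may be divided between them. Eif3j1 had 2.40 and 1.95 in eIF4E, 0.26 in IgG, and 0.58 and 0.76 in Input. Eif3j2 had 3.42 and 2.93 in eIF4E, 0.67 in IgG, and 0.90 and 0.73 in Input. These values are near the filter, which both genes passed through eIF4E alone.

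**Figure D3:**
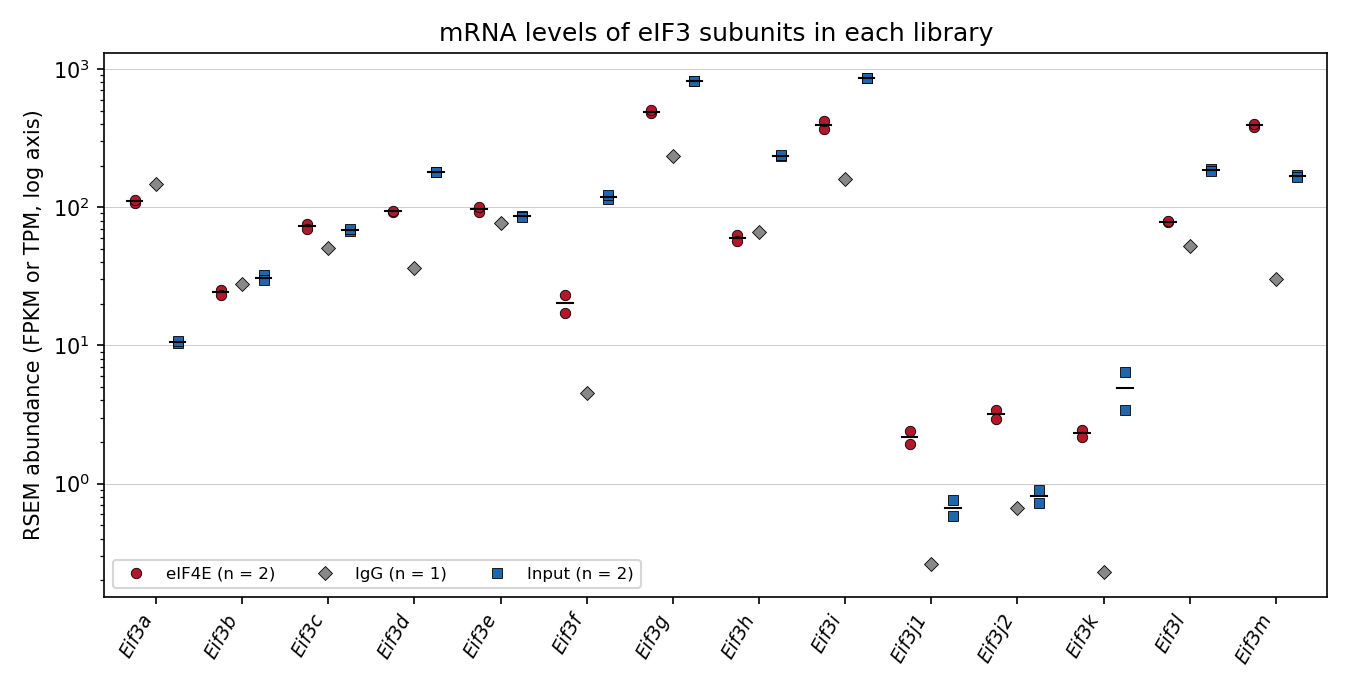
Abundance of the 14 eIF3 subunit mRNAs (vertical log axis, FPKM or TPM) in every library. Red circles are eIF4E, grey diamonds IgG and blue squares Input libraries, and black lines are means of 2 libraries. Eif3a is at 10.4 and 10.8 in Input and above 100 in both precipitates, and Among the subunits above 10 in all libraries, only Eif3m has eIF4E values more than 2-fold above both its IgG and its Input values.

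The levels of eIF3 mRNAs were far from equal. Without the genes of subunit j, the SD of log2(abundance + 1) across the other 12 subunits was 1.98 and 2.09 in eIF4E, 2.13 in IgG, and 2.25 and 2.11 in Input, so the overall spread was about the same while the order changed. The ratio of Eif3a to Eif3i, the subunits with the highest fold change and the highest Input level, was 0.289 and 0.271 in eIF4E, 0.927 in IgG, and 0.0120 and 0.0127 in Input.

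Many mRNAs of the translation machinery begin with a terminal oligopyrimidine run, a C followed by further C or T bases at the transcription start. The starts annotated by RefSeq (GRCm38.p6) are shown for eIF3 subunits with low and high fold changes (Eif3h and Eif3i, which also fell, have no entry in the table of starts), with 15 bases before the start in lower case and the 15 bases from the start in capitals, read from 5′ to 3′.
Eif3f: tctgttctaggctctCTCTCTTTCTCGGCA
Eif3l: gcgcggagttcttctTCCGCTCTCTCCCAC
Eif3d: gtggtagggccatttACGACAGCGCTGGTC
Eif3m: ttttccggtcggcgtGTTTCTGGATCGGAG
Eif3a: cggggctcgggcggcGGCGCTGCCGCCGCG
These lie at chr7:108934400-108934429 (plus strand, Eif3f), chr15:79075208-79075237 (plus strand, Eif3l), chr15:77970810-77970839 (minus strand, Eif3d), chr2:105017013-105017042 (minus strand, Eif3m) and chr19:60790679-60790708 (minus strand, Eif3a). Eif3f, the subunit with the lowest fold change, begins with C and a run of pyrimidines. By the criterion of a C at a start followed by at least 4 pyrimidines, Eif3f was the only one of the 35 tested members with a start in the table, or 2.86%, against 3.08% of 9628 tested genes. With the same run allowed to begin within 10 bases of a start, 10 of 35 members had it (28.6%), against 37.0% of the tested genes. Of these 10 members, Eif3f, Eif3l, Eif3b, Eif2b2 and Eif2b5 fell over Input. Eif2ak1, Eif2ak3, Eif2ak4 and Eif4b rose, and Eif1ad did not pass. Annotated starts can lie some bases away from those used in these cells, so the absence of a run in such a window says only that these letters are not there.

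eIF4A is the helicase that unwinds the leader of an mRNA. Eif4a1, the form most used in the cap-binding complex, stood at 1601 and 1654 in eIF4E, 896 in IgG, and 1551 and 1536 in Input. Eif4a2, its close paralog, stood at 248 and 266 in eIF4E, 402 in IgG, and 41.4 and 38.1 in Input. Eif4a3, a relative that acts in the exon junction complex, stood at 243 and 235 in eIF4E, 199.8 in IgG, and 371 and 369.9 in Input. Eif4a1 and Eif4a2 share most of their sequence, yet their mRNAs did not behave alike. Eif4a2 rose 6.34-fold over Input (log2 2.66, SE 0.07, adjusted p = 5.7e-05), and Eif4a3 fell to 0.645 (log2 -0.63, SE 0.04, adjusted p = 2.5e-04). Eif4a1 missed the threshold (log2 0.08, adjusted p = 0.119), and its call depended on the scaling: lower under median-of-ratios scaling (log2 -0.25, adjusted p = 0.00613) and higher under quantile normalization and the same total (log2 0.47 and 0.32). The ratio of Eif4a2 to Eif4a1, which a single factor per library leaves as it is, was 0.155 and 0.161 in eIF4E, 0.448 in IgG, and 0.0267 and 0.0248 in Input. With 2 libraries against 2, an exact permutation test of such a ratio cannot give a two-sided p below 0.333.

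The same windows are shown for both paralogs, whose ratio differed between the groups.
Eif4a1: acaaagtaacgtcacGTCGAGTTGCAGAGC
Eif4a2: ccgcggaaaccccgtAGGAGCAGGGCGGCC
They lie at chr11:69672409-69672438 (minus strand, Eif4a1) and chr16:23107453-23107482 (plus strand, Eif4a2), and neither holds the pyrimidine run. The annotated span of Eif4a1 overlaps 3 small nucleolar RNA genes and that of Eif4a2 overlaps 5 and Rfc4. Other members overlap annotated genes too, among them Eif3a (Snora19), Eif5 (Snora28), Eif3m (Ccdc73), Eif2a (Serp1), Eif5b (Rev1), Eif5a (Gps2) and Eif2d (Rassf5). Reads from overlapping genes cannot be told apart by strand in libraries of this kind.

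eIF4B and eIF4H are cofactors of the helicase. Eif4b stood at 89.3 and 95.0 in eIF4E, 59.8 in IgG, and 77.0 and 74.3 in Input, and Eif4h at 706 and 707 in eIF4E, 432 in IgG, and 674 and 666 in Input. Eif4b was higher than Input (log2 0.28, adjusted p = 0.00938), but not without Input replicate 1 or 2 (adjusted p = 0.0502 and 0.0726), and it turned under median-of-ratios scaling. Eif4h did not pass (log2 0.08, adjusted p = 0.108), but was lower under median-of-ratios scaling (log2 -0.25, adjusted p = 0.0043) and higher under quantile normalization (log2 0.51, adjusted p = 5.3e-04) and at the same total (log2 0.32, adjusted p = 0.00172). Both were higher in eIF4E than in IgG (log2 0.62 and 0.71), although Eif4h lost that call under quantile normalization (adjusted p = 0.472).

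eIF1 and eIF1A hold the scanning small subunit open. Eif1 stood at 394 and 385 in eIF4E, 107 in IgG, and 403 and 370.4 in Input, and its paralog Eif1b at 419 and 395 in eIF4E, 129.5 in IgG, and 398 and 408 in Input. For both, eIF4E and Input values overlapped (adjusted p = 0.851 and 0.781), whereas the IgG value was far lower. Their calls depended on the scaling: both were lower under median-of-ratios scaling (log2 -0.31 each, adjusted p = 0.00488 for Eif1 and 0.00337 for Eif1b) and higher under quantile normalization (adjusted p = 0.0165 and 0.0056) and at the same total (0.0158 and 0.00591). Against IgG they were higher in eIF4E by log2 1.86 and 1.64. The eIF1A genes differed from them. Eif1a stood at 40.6 and 46.9 in eIF4E, 13.7 in IgG, and 7.94 and 7.76 in Input, and Eif1ax at 94.3 and 89.1 in eIF4E, 115 in IgG, and 41.3 and 43.8 in Input. Eif1a rose 5.04-fold (log2 2.33, SE 0.09) and Eif1ax 2.13-fold (log2 1.09, SE 0.06) over Input, but only Eif1a was also higher than IgG (log2 1.60, adjusted p = 2.0e-04), Eif1ax being lower (log2 -0.33, adjusted p = 0.0110). Eif1ad, which shares a domain with eIF1A, stood at 76.5 and 79.8 in eIF4E, 79.8 in IgG, and 72.8 and 71.7 in Input, and passed neither test (adjusted p = 0.104 against Input and 0.667 against IgG).

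**Figure D4:**
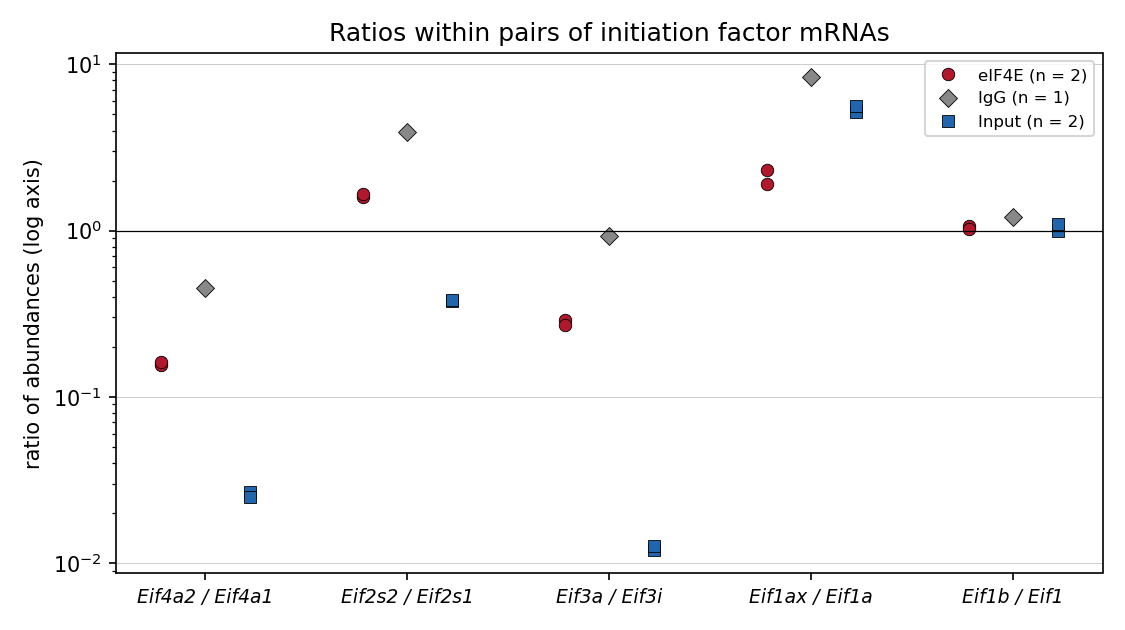
Ratio of the abundances of 2 initiation factor mRNAs (vertical log axis) in every library for 5 pairs. Red circles are eIF4E, grey diamonds IgG and blue squares Input libraries, and the horizontal line marks a ratio of 1. The ratio of Eif4a2 to Eif4a1 is lowest in Input at 0.0267 and 0.0248, that of Eif1ax to Eif1a is lowest in eIF4E at 2.32 and 1.90, and that of Eif1b to Eif1 stays between 0.987 and 1.21.

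Of the factors that complete initiation, Eif5, the GTPase activator of eIF2, stood at 701 and 732 in eIF4E, 507 in IgG, and 139.9 and 122 in Input. Eif5b, the GTPase that joins the subunits, stood at 28.6 and 30.1 in eIF4E, 10.5 in IgG, and 5.65 and 6.15 in Input. They rose 5.45-fold (log2 2.45, SE 0.08, adjusted p = 6.8e-05) and 4.40-fold (log2 2.14, SE 0.08, adjusted p = 8.6e-05) over Input. Both were also higher than IgG, Eif5b by log2 1.40 and Eif5 by log2 0.50, the value of Eif5 turning under quantile normalization and losing its call at the same total (log2 0.15, adjusted p = 0.229). Eif6, which keeps the large subunit from joining too early, went the opposite way, at 105 and 99.9 in eIF4E, 57.7 in IgG, and 232 and 225 in Input, a fall to 0.450 (log2 -1.15, SE 0.05, adjusted p = 1.1e-04).

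Eif5a, now known mainly for its role in elongation and termination, had the highest Input level of all members. It stood at 1498 and 1335 in eIF4E, 427 in IgG, and 2690.1 and 2715 in Input, and fell to 0.523 of Input (log2 -0.93, adjusted p = 2.9e-04). Its paralog Eif5a2 was near the filter, at 1.41 and 1.50 in eIF4E, 0 in IgG, and 0.33 and 0.32 in Input. Eif2a and Eif2d encode factors that can deliver tRNA without eIF2. Eif2a stood at 26.2 and 26.7 in eIF4E, 13.4 in IgG, and 9.35 and 9.54 in Input, higher than Input by log2 1.39 (adjusted p = 1.3e-04). Eif2d stood at 72.9 and 72.8 in eIF4E, 117 in IgG, and 100.3 and 95.8 in Input, lower than Input by log2 -0.42 (adjusted p = 0.00148).

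The second contrast sets the eIF4E libraries against the control precipitate, of which there is only 1, assumed to vary like the others. That library had only 11825 genes above 0, against 17412 to 18745 in the others. The part of this in low IgG values, such as 1.16 for Eif2b4, was not tested. By the test 29 of 42 members were higher, where 53.1% of all genes were, and 7 were lower, where 30.6% of all genes were. The median log2 fold change was 0.76 over the members and 0.55 over all genes. Without the 4 members that reached the filter in eIF4E alone, 25 of 38 were higher and 7 lower, with a median of 0.60. Under quantile normalization 19 were higher and 12 lower, and after rescaling to the same total 24 and 11. Of 14 eIF3 genes 11 were higher and 1, Eif3a, lower (7 and 3 under quantile normalization), and without Eif3j1 and Eif3j2, which reached the filter in eIF4E alone, 9 of 12 were higher. The low Eif3k and Eif2ak2 were called higher, but not without eIF4E replicate 1 or 2 (adjusted p = 0.0665 and 0.0556 for Eif3k, 0.0537 and 0.0661 for Eif2ak2). Eif3m (log2 3.64, adjusted p = 1.1e-05) and Eif2b4 (log2 3.24, adjusted p = 5.0e-05) differed most, followed by Eif3f (log2 1.93), which was lower than Input but higher than IgG. Of the eIF4A genes, Eif4a1 was higher than IgG (log2 0.86) and Eif4a2 lower (log2 -0.64, adjusted p = 0.00133), and Eif4a3 was higher (log2 0.25, adjusted p = 0.00697), but it was lower under quantile normalization (log2 -0.33, adjusted p = 0.00311) and did not pass at the same total (log2 -0.09, adjusted p = 0.159).

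With both contrasts side by side, Eif1a, Eif2a, Eif2s1, Eif2s2, Eif3m, Eif4b, Eif5 and Eif5b were called higher in eIF4E than in Input and than in IgG. So were Eif2ak2, Eif3j1, Eif3j2 and Eif5a2, which reached the filter in eIF4E alone. Eif1ax, Eif2ak4, Eif3a and Eif4a2 were higher than Input and lower than IgG. Lower than Input and higher than IgG were Eif2b1, Eif2b4, Eif4a3, Eif5a, Eif6 and the eIF3 subunits d, f, g, i and l. Eif2b2, Eif2b5 and Eif2d were lower than both. Eif2ak1, Eif2ak3 and Eif2b3 were higher than Input without a call against IgG, and Eif3b and Eif3h were lower than Input without one. Eif1, Eif1b, Eif3c, Eif3e, Eif3k, Eif4a1 and Eif4h were higher than IgG without a call against Input, and Eif1ad passed neither. These comparisons share the eIF4E libraries, so their calls are not independent. The share of all genes in each of these classes was not computed, so the lists are a description only.

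The IgG library against Input shows how the control precipitate itself departs from the cytoplasm. With 1 IgG library, 14 of 42 members were higher, where 37.8% of all genes were, and 21 lower, where 50.3% of all genes were (9 and 25 under median-of-ratios scaling, 19 and 16 after rescaling to the same total). The members with the largest rises over Input in eIF4E had large ones in IgG too: Eif3a at log2 3.68, Eif4a2 at 3.31, Eif2s2 at 3.04 and Eif5 at 1.95. Both comparisons share the Input libraries. Eif1a (log2 0.73), Eif5b (0.74) and Eif2a (0.46) had smaller fold changes over Input in IgG than in eIF4E, and Eif2s1 (log2 -0.18, adjusted p = 0.0805) did not pass. Among the members lower in IgG than in Input were Eif3f (log2 -4.44), Eif2b4 (-4.07), Eif5a (-2.66), Eif3i (-2.43) and Eif3m (-2.42), the last of which was higher than Input in eIF4E.

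Partners of these factors outside the rule were followed as small lists: cap binding, ribosome recycling and reinitiation, helicases and their regulators, enzymes that hypusinate eIF5A, the eIF2 phosphatase, regulators of eIF2 kinases, the eIF5 mimics and Paip1. All 21 genes passed the filter, and 16 were higher and 4 lower in eIF4E than in Input, where 43.3% and 30.6% of all genes were, with a median log2 fold change of 1.62, against 0.16 over all genes (14 higher and 5 lower under median-of-ratios scaling, where Bzw2 turned). All 4 cap-binding genes rose, with Eif4g3, a scaffold, the highest of the partners (84.5 and 86.2 in eIF4E, 33.9 in IgG, 6.18 and 6.51 in Input). The recycling factors Abce1, Denr and Mcts1 rose as well, from log2 0.85 (Mcts1) to 2.47 (Abce1). So did the helicases Ddx3x (log2 2.55) and Dhx29 (log2 1.03), and Pdcd4, an inhibitor of eIF4A (log2 1.62). The eIF5 mimic Bzw1 rose by log2 2.15. The hypusination enzymes Dhps and Dohh fell, by log2 -0.62 and -0.55, the same direction as Eif5a. Ppp1ca, the catalytic phosphatase subunit, had the lowest fold change of the partners (log2 -1.20; 676 and 701 in eIF4E, 198 in IgG, 1609 and 1564 in Input), and Gcn1, the activator of GCN2, fell by log2 -0.89. In IgG over Input the median of the 21 genes was log2 0.47, against -0.43 over all genes. Single partners ran there from log2 -2.99 (Ppp1ca) to 3.12 (Abce1), so part of the rises over Input was shared with the control precipitate. Against IgG, where 53.1% of all genes were higher and 30.6% lower, 14 partners were higher and 4 lower, namely Abce1, Pdcd4, Gcn1 and Paip1.

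Across the 42 members, the log2 fold change over Input had Pearson's r = 0.21 and Spearman's rho = 0.31 with the log10 of the genomic span of the gene, against r = 0.38 and rho = 0.40 across 12399 tested genes with a span. Against IgG the values were r = -0.41 and rho = -0.41 over the members and r = -0.24 and rho = -0.26 over all genes. For IgG over Input they were r = 0.39 and rho = 0.46 over the members and r = 0.37 and rho = 0.39 over all genes. These are descriptions across genes measured in the same libraries, and genomic span is not transcript length.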

How the data were processed

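Libraries were made by Smart-seq2, per the labels' protocols, which primes on poly(A) tails and marks neither strand nor molecules. The authors deposited 1 table of RSEM abundances, taken here as FPKM, with a column for each library. They could also be TPM, as no header settles it, and both differ by 1 factor per library. Per the submitters' processing notes, STAR 2.7.9a and RSEM 1.3.3 were used with mm10. The annotation is not given in the sources. RSEM divides reads that match several genes, so values of paralogs with near-identical copies (Eif3j1 and Eif3j2, Eif4a1, Eif5a) are uncertain. Column totals ran from 560076 (IgG) to 848550 (an Input library).

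The table had 50161 rows, and 286 exact repeats of an earlier row were removed. The 12769 genes that reached 1 in 2 or more of the 5 libraries were tested as log2(value + 1) with limma 3.58.1 in R 4.3.3, in 1 fit of 3 groups (trended empirical Bayes, two-sided, Benjamini-Hochberg adjustment over all genes tested, threshold 0.05, 2 residual degrees of freedom). The fit was tested on simulated data. All 42 members that passed the filter had a RefSeq entry by symbol, and start sequences are from RefSeq, GRCm38.p6. Members, gene lists and the naming rule (all members may be named, full statistics for the extremes of each complex and for Eif1, Eif5, Eif5b and Eif6) were chosen with earlier results of these data known. Values set in pairs and ratios were chosen after the values were seen. Alternatives covered scaling, filter, pseudocount 0.1, single libraries and a replicate block. The result of 1 marker gene is not reported here.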

Additional observations from a re-analysis of the deposited data

How the results depend on the processing

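The scalings moved the median of all genes. Relative to the values as deposited, the median of eIF4E over Input shifted by -0.27 (median of ratios), -0.27 (quantile) and 0.20 (same total), that of eIF4E over IgG by -0.59 (quantile) and -0.29 (same total), and that of IgG over Input by -0.21, 0.36 and 0.46 in the order first given. Against IgG, 19 members were higher and 12 lower in eIF4E under quantile normalization and 11 lower at the same total, and 9 were higher in IgG than in Input under the median of ratios. Leaving out each eIF4E or Input library in turn gave 15 to 17 members higher and 14 to 15 lower in eIF4E than in Input (19 and 15 without the IgG library), 26 to 28 and 7 to 8 against IgG, and 11 to 14 and 20 to 21 for IgG over Input. Same-numbered libraries did not deviate together (r = 0.02), and with the replicate number as a block 18 members were higher and 16 lower than Input. Directions that turned, in log2, were as follows, and the cause was not tested. Under median-of-ratios scaling, eIF4E over Input gave Eif1 -0.31, Eif1b -0.31, Eif2ak1 -0.055, Eif3c -0.24, Eif3e -0.15, Eif4a1 -0.25, Eif4b -0.041, Eif4h -0.25 and Eif1ad -0.21. Without eIF4E replicate 1, eIF4E over Input gave Eif1 -0.0052 and Eif1b -0.026. Without Input replicate 2, eIF4E over Input gave Eif1 -0.048. Without Input replicate 1, eIF4E over Input gave Eif1b -0.0018. Under quantile normalization, eIF4E over Input gave Eif2ak1 -0.043. Under quantile normalization, eIF4E over IgG gave Eif2s2 -0.0064, Eif2ak2 -0.16, Eif3j1 -0.44, Eif3j2 -0.31, Eif3k -0.38, Eif4a3 -0.33, Eif5 -0.16 and Eif5a2 -0.079. At the same total, eIF4E over IgG gave Eif2s2 -0.15, Eif2b3 -0.23, Eif3e -0.021 and Eif4a3 -0.094. At the same total, IgG over Input gave Eif2s1 0.39, Eif2b2 0.056, Eif3b 0.42, Eif3c 0.17, Eif3e 0.43, Eif3j2 0.14 and Eif4b 0.25. Under quantile normalization, IgG over Input gave Eif2ak2 0.54, Eif2b2 0.36, Eif3e 0.11, Eif3j1 0.84, Eif3j2 0.94, Eif4a1 0.23, Eif4h 0.47 and Eif5a2 0.43. Under median-of-ratios scaling, IgG over Input gave Eif1ad -0.14 and Eif2d -0.025. Over the single libraries left out, Eif1 ran from -0.048 to 0.073 and Eif1b from -0.026 to 0.058 for eIF4E over Input. The limits are 2 libraries a group, 1 IgG library and an unknown depth, so low members such as Eif3j1, Eif3k and Eif2ak2 are the least certain.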

Other observations

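Of the 8 symbols marked as pseudogenes, which the rule leaves out, 4 were listed at 0 in every library. Eif4a-ps4, named for eIF4A, stood at 31.1 and 30.2 in eIF4E, 17.4 in IgG, and 26.6 and 27.3 in Input, an order of groups like that of Eif4a1. Eif3s6-ps2 was listed at 26.1 in the first eIF4E library and at 0 in the other 4 libraries. Eif3s6-ps1 was listed at 0.31 in the other eIF4E library and at 0 elsewhere. Eif5al3-ps was listed at 0.97 and 0.66 in Input and at 0 elsewhere.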
